A study of Mus musculus with 4 samples.

Results

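Transcript levels in epiblast-like aggregates (ELA) kept with the demethylase inhibitor CHQ were set against those of untreated mouse embryonic stem (ES) cells, to find where the treated cells did not reach the ES level and where they went past it. The comparison rests on 2 of the 4 arrays analysed, the one labelled ES control and the one labelled ELA CHQ, and on 19185 of the 36039 genes of the array design, those read above background in ES, with CHQ or in both and with a mean log2 intensity of at least 7.5 over the pair. All cells were of 1 line, E14Tg2A, of 129/Ola origin. The ES cells were collected at day 0, attached to gelatin in serum with leukemia inhibitory factor (LIF) and without inhibitor. The CHQ cells were collected after 2 days as floating aggregates in a chemically defined minimal medium without serum or LIF, in the presence of 100 µM CHQ (5-carboxy-8-hydroxyquinoline). The other 2 arrays are quoted only beside these, namely ELA of day 2 without inhibitor and ELA of day 2 with 50 nM of the DNA methyltransferase inhibitor 5-azacytidine (AZA). RNA of 3 experiments had been mixed before each hybridization, so each group has 1 value per gene, no spread between samples can be given and no test was possible. The CHQ and ES cells differ in medium, attachment and days of culture as well as in the inhibitor, and these cannot be told apart here. The ES and ELA arrays also lay on one slide and the AZA and CHQ arrays on another, so the slide and the CHQ minus ES difference cannot be told apart either, and the CHQ minus AZA difference is given as the value within a slide.

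Naive ES cells correspond to the inner cell mass of the blastocyst and depend on LIF, which acts through Stat3, and on bone morphogenetic protein (BMP) signals from serum, which induce the Id proteins that hold back basic helix-loop-helix factors. On withdrawal of these signals they lose naive factors such as Nanog, Esrrb and Zfp42 and pass into a primed state like that of the epiblast after implantation. CHQ belongs to the 8-hydroxyquinolines, which occupy the iron of 2-oxoglutarate-dependent enzymes. These enzymes include the Jumonji histone lysine demethylases and the prolyl hydroxylases that mark hypoxia-inducible factor (HIF) for degradation.

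The arrays differed in ways that are not tied to any gene. On the ES array 60.6% of gene spots were well above background, and on the CHQ array 69.2%. The local background had medians of 59 and 13. Repeated spots of the same probe (432 probes) differed by an SD of 0.149 log2 on the ES array and 0.137 on the CHQ array, which gives 0.203 for a difference between them and covers spotting and reading only. The pluripotency markers Pou5f1, Sox2, Nanog and Zfp42 were well above background on both arrays, which does not tell the 2 labels apart. Since each array measured a whole culture, fewer cells of a type and less RNA per cell cannot be told apart in any of the values below.

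Of the 19185 genes, 4411 (23%) were called, which here means that CHQ and ES differed by at least 1 log2 unit. Of these, 2435 (12.7%) were higher with CHQ and 1976 (10.3%) were lower. 1000 genes differed by 2 log2 units or more and 73 by 4 or more. By the same rule untreated ELA differed from ES in 10% of genes (4.45% higher, 5.59% lower), AZA from ES in 19.5%, and CHQ from AZA in 10.3% (5.53% higher, 4.81% lower). The 3 comparisons with ES share the ES array. The direction of the calls depended on how the arrays were scaled. Under the main quantile normalization 55.2% of the called genes were higher with CHQ and the median difference was -0.10. Scaling to the 75th percentile of each array gave 37.6% and -0.32, and scaling to the 7 E1A spike-in probes gave 8.69% and -1.01. The histogram of differences shows the bulk of genes at lower values under the latter 2 scalings. Each direction given below is therefore one against the bulk of genes in the main values.

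**Figure D1:**
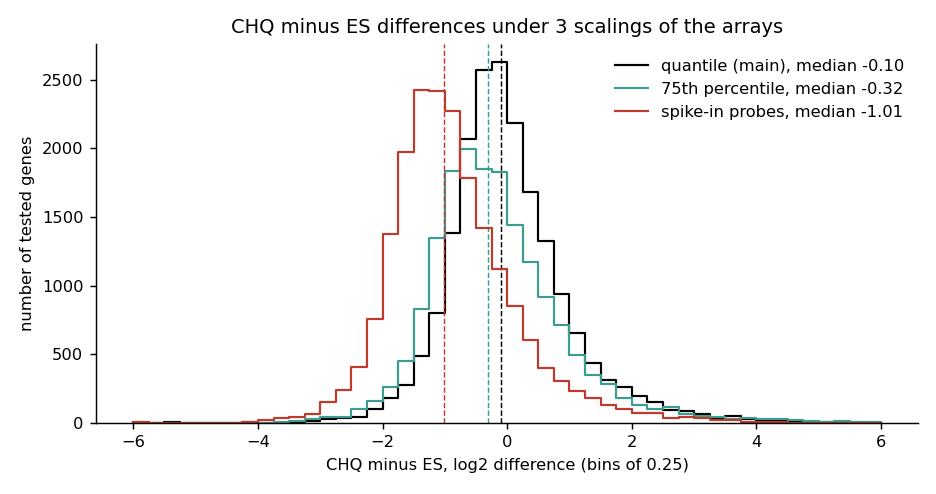
Number of tested genes (vertical axis) by CHQ minus ES log2 difference (horizontal axis, bins of 0.25, values past 6 placed in the end bins) under quantile normalization, 75th percentile scaling and spike-in scaling. Dashed lines mark the medians of -0.10, -0.32 and -1.01.

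Genes far from ES stand away from the diagonal of the plot of levels. On the low side was Myl9, the regulatory light chain of non-muscle and smooth muscle myosin (probe on chromosome 2, 156607301 to 156607360, build mm9), with log2 intensities of 15.06 (ES), 14.72 (ELA), 10.60 (AZA) and 7.79 (CHQ). Unlabelled series of 4 values below follow this order of groups. Its CHQ level was 155-fold below ES. On the high side, first among genes well above background on both arrays with an ordinary symbol, was Ndufa4l2, a HIF-induced relative of a complex I subunit (chromosome 10, 126954149 to 126954208), with 9.1 (ES), 9.68 (ELA), 14.51 (AZA) and 14.83 (CHQ), a 53.1-fold difference from ES. Both genes were within 1 log2 of ES in untreated ELA, and both AZA and CHQ arrays lay on the far side.

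**Figure D2:**
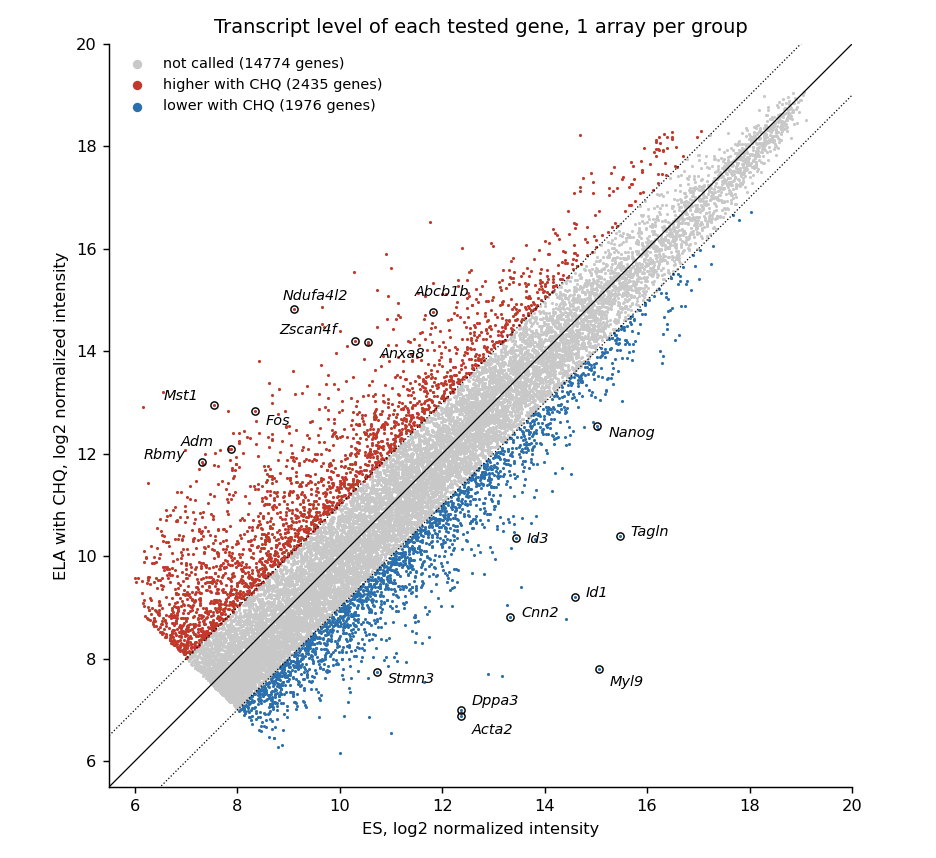
Log2 normalized intensity in ES (horizontal axis) and in ELA with CHQ (vertical axis) for the 19185 tested genes, 1 array per group, with the 2435 genes called higher in red, the 1976 called lower in blue and the others in grey. The solid line marks equal levels, the dotted lines a difference of 1, and circles mark named genes such as Myl9 (15.06 and 7.79) and Ndufa4l2 (9.1 and 14.83).

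The genes that separate ES from untreated ELA were read first, since for these a return to ES has a meaning. Of 1751 tested genes that differed between ELA and ES by the same rule, CHQ cells were within 1 log2 of ES for 1011 (57.7%). For the other genes CHQ cells fell into 3 classes. In 220 genes (12.6%) they lay apart from ES on the side of ELA but short of it, in 259 (14.8%) on the side of ELA and as far as ELA or farther, and in 261 (14.9%) on the opposite side of ES. The last class, the overshoot, held 207 of the 1053 genes that ES cells had above ELA (19.7%), beside 12.7% of all tested genes called higher. It held 54 of the 698 that ES cells had below ELA (7.74%). That is no more than the 10.3% of all tested genes called lower. The CHQ minus ES and ELA minus ES differences share the ES array, so an unusual ES value alone moves a gene between classes, and the counts are a description. Outside these genes, 3671 called genes (83.2% of all called) did not differ between ES and ELA and departed with CHQ, 2027 upward and 1644 downward. These departures were 21.1% of the 17434 tested genes not called between ES and ELA, whereas 740 of the 1751 genes that differed between ES and ELA were called (42.3%).

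**Figure D3:**
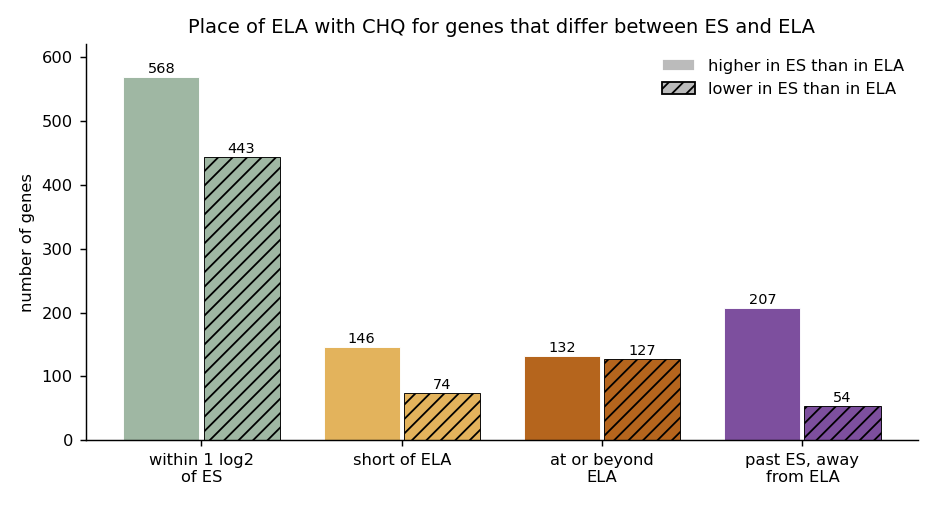
Number of genes (vertical axis) by the place of CHQ-treated ELA relative to ES and untreated ELA, for the 1053 tested genes higher in ES than in ELA (plain bars) and the 698 lower in ES (hatched bars). Of the genes higher in ES, 568 came within 1 log2 of ES and 207 went past it, against 443 and 54 of those lower in ES.

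Within the slide, 948 of the 4411 called genes (21.5%) also lay at least 1 log2 from AZA in the same direction, 634 of them higher and 314 lower with CHQ. These were 92 of the 220 genes short of ELA, 106 of the 259 beyond ELA, 50 of the 261 overshoots and 700 of the 3671 departures. The 2 differences share the CHQ array, and these shares are a description.

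Dppa3, Id3, Abcb1b and Anxa8 show the 2 sides of the mismatch. Dppa3 encodes a maternal protein that shields DNA methylation in the early embryo and marks naive cells (chromosome 6, 122580207 to 122580266). Its log2 intensity was 12.37 (ES), 10.43 (ELA), 9.97 (AZA) and 7.0 (CHQ). CHQ cells were 41.5-fold below ES and lay below both other ELA arrays, -2.98 against AZA on the same slide. Id3, a BMP-induced inhibitor of basic helix-loop-helix factors (chromosome 4, 135700075 to 135700249), stood at 13.44 (ES), 13.69 (ELA), 11.36 (AZA) and 10.36 (CHQ), which is 8.43-fold below ES although untreated ELA matched ES. Abcb1b encodes a drug efflux pump of the P-glycoprotein type (chromosome 5, 8865925 to 8865984). It read 11.82 (ES), 8.79 (ELA), 13.62 (AZA) and 14.77 (CHQ), so that CHQ went 7.73-fold past ES. Anxa8, a calcium-dependent phospholipid-binding protein (chromosome 14, 34913661 to 34913720), overshot in the same way, with 10.56 (ES), 7.43 (ELA), 13.98 (AZA) and 14.19 (CHQ). A second Anxa8 probe also lay higher with CHQ than in ES, by 2.49.

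The naive pluripotency factors were at the ES level in part, by a margin that depended on the scaling. Of 17 measured genes, 8 matched ES, 4 stayed short of ES on the side of ELA, 2 lay as far as ELA or farther, 2 overshot, and 1 did not differ between any of these arrays by the rule. By calls, 2 were higher and 6 lower with CHQ, against 12.7% and 10.3% of all genes. The median difference was -0.75 against -0.10 over all tested genes, and it was -1.41 and -2.08 under the 75th percentile and spike-in scalings. The median was -2.50 for untreated ELA and 0.40 for AZA. In these bulk cultures the list thus stood below ES with CHQ, while its median lay above ES with AZA.

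Nanog, the homeobox factor of naive identity (chromosome 6, 122664590 to 122664649), had log2 intensities of 15.03 (ES), 12.53 (ELA), 15.39 (AZA) and 12.54 (CHQ). The CHQ level was 5.61-fold below ES and the same as in untreated ELA, whereas AZA on the same slide stood 2.85 higher. A dimmer Nanog probe did not show this order, with 9.44 (ES), 9.68 (ELA), 8.13 (AZA) and 8.66 (CHQ). On that probe the CHQ minus ES difference was -0.78, and AZA was the lowest array rather than the highest. The mouse genome holds several near copies of Nanog, so the transcript read by each probe is uncertain.

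The other members called lower, besides Dppa3, were Tcl1, Prdm14, Nr5a2 and Gbx2. Tcl1, a co-activator of the kinase Akt, stood at 13.07 (ES), 9.40 (ELA), 14.37 (AZA) and 10.54 (CHQ). Prdm14, a repressor of differentiation genes and of DNA methylation in naive cells, had 10.56, 6.68, 10.74 and 8.36 in the same order. For both, CHQ lay between ELA and ES while AZA was above ES. Nr5a2, a nuclear receptor that binds the Pou5f1 enhancers, had 13.32 (ES), 9.68 (ELA), 12.37 (AZA) and 11.58 (CHQ). Gbx2, a homeobox gene induced by Stat3, had 10.78, 9.62, 8.24 and 8.79, and was lower than in ES on every ELA array.

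The factors that matched ES were Klf2, Klf4 and Klf5 of the Krüppel-like family, the nuclear receptors Esrrb and Nr0b1, Tfcp2l1, Zfp42 and Dppa5a. Their CHQ minus ES differences were -0.18 for Klf2, 0.46 for Klf4, 0.20 for Klf5, -0.96 for Esrrb, -0.55 for Nr0b1, -0.84 for Tfcp2l1, -0.75 for Zfp42 and -0.61 for Dppa5a. Under the 75th percentile scaling Esrrb (-1.42), Dppa5a (-1.42) and Zfp42 (-1.41) were past the threshold. With the spike-in probes Klf2 (-1.37), Esrrb (-2.15), Nr0b1 (-1.53), Tfcp2l1 (-1.70), Zfp42 (-2.08, the list median) and Dppa5a (-2.14) were past the threshold. Klf4 (-0.48) and Klf5 (-0.87) were not. Esrrb and Tfcp2l1 were near it in the main values, and a further probe of Tfcp2l1 stood at -2.23. Against AZA, Esrrb was 2.01 and Nr0b1 1.12 lower with CHQ. Pecam1, an adhesion molecule of naive cells, had 8.67 in ES and 8.43 with CHQ. The 2 overshoots were Tbx3, a T-box factor, with 10.72 (ES), 8.46 (ELA), 13.56 (AZA) and 12.03 (CHQ), and the growth factor gene Fgf4, with 15.24, 13.98, 15.70 and 16.32. The Fgf4 difference of 1.08 became -0.31 under the spike-in scaling.

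**Figure D4:**
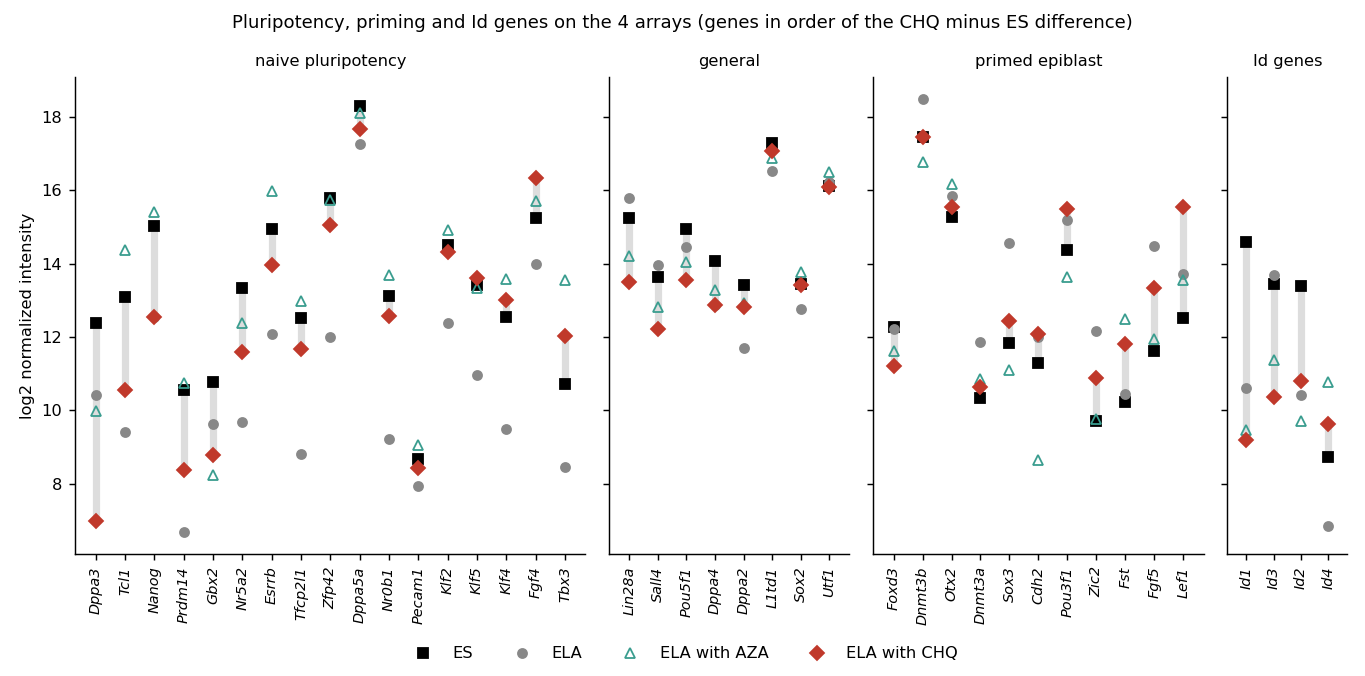
Log2 normalized intensity (vertical axis) of 17 naive, 8 of the 9 general (1 is not shown here), 11 primed and 4 Id genes on the 4 arrays, genes in order of the CHQ minus ES difference within each panel; grey bars join ES (black squares) and ELA with CHQ (red diamonds). Dppa3 spans 12.37 to 7.0 and Id1 14.59 to 9.20, while Klf2, Klf5 and Sox2 have both symbols nearly on top of each other.

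Genes of general pluripotency, all 9 well above background in untreated ELA as well, were called in 4 of 9 cases, all lower with CHQ, against 10.3% of all genes. The list median was -0.60, beside -0.66 for untreated ELA minus ES. The CHQ minus ES median was -1.04, -1.73 and -1.20 under the 75th percentile scaling, the spike-in scaling and the mean over probes. Pou5f1, the central factor of pluripotency, had 14.95 (ES), 14.46 (ELA), 14.05 (AZA) and 13.56 (CHQ). Sall4, a zinc finger factor of the same network, had 13.64, 13.97, 12.81 and 12.22, and a further probe gave -1.92. Lin28a, which blocks let-7 maturation, had 15.23, 15.78, 14.21 and 13.49 and was the lowest of the list relative to ES. In all 3 the CHQ array was the lowest of the 4. Dppa4, a chromatin factor of naive and primed cells, was lower by 1.2, with 14.08, 12.88, 13.29 and 12.88. Its CHQ level was that of untreated ELA. The other 5 were not called, among them Sox2 with a difference of -0.02, Utf1 with -0.02, L1td1 with -0.21 and Dppa2 with -0.60. A further Dppa2 probe stood at -2.13 and the mean over its probes at -1.37, both past the threshold.

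Primed epiblast genes were called higher in 5 and lower in 1 of 11 cases, against 12.7% and 10.3% of all genes. The list median was 0.80 in the main values and -0.15 under the spike-in scaling. Lef1, a nuclear effector of Wnt signals (chromosome 3, 130926200 to 130926259), had 12.52 (ES), 13.73 (ELA), 13.55 (AZA) and 15.54 (CHQ), and so passed even the primed level, 8.13-fold above ES. Fgf5, the classical marker of the primed epiblast, had 11.61, 14.47, 11.94 and 13.32, and Zic2, a zinc finger factor of the primed state, had 9.70, 12.16, 9.76 and 10.88. For these 2 genes AZA was within 1 log2 of ES and CHQ was not. Fst, an inhibitor of activin, was higher by 1.57 and Pou3f1, a POU factor, by 1.12, although the latter became -0.15 with the spike-in probes (Zic2 and Pou3f1 were picked after their values were seen). Foxd3, a forkhead factor of ES and primed cells, was lower by 1.07. The de novo DNA methyltransferase genes were at the ES level in the main values, with differences of 0.30 for Dnmt3a and -0.00 for Dnmt3b. Under the 75th percentile and spike-in scalings Dnmt3a stood at 0.36 and -0.45. Dnmt3b stood at -0.83 and -1.50, the latter past the threshold.

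The Id genes, read-outs of BMP signals, were the group of pluripotency regulators farthest from ES, with 3 of 4 called lower, against 10.3% of all genes, and a median of -2.83. Id1 (chromosome 2, 152563083 to 152563142) had 14.59 (ES), 10.61 (ELA), 9.46 (AZA) and 9.20 (CHQ), 42.0-fold below ES. Id2 had 13.38, 10.42, 9.70 and 10.79. Id4, which is dim in ES, had 8.72, 6.84, 10.76 and 9.63 and was not called. Together with Id3 above, Id1 and Id2 were low on both inhibitor arrays, and Id1 and Id2 were low in untreated ELA as well.

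In the wider BMP pathway list, which contains the Id genes, 2 of 18 tested members were called higher and 4 lower, against 12.7% and 10.3% of all genes, and the median was 0.21 (-0.61 under the spike-in scaling). Bmp7, a ligand, had 9.46 (ES), 10.01 (ELA), 12.29 (AZA) and 12.65 (CHQ), 9.14-fold above ES. Smad5, a transducer, was higher by 1.11 on its brighter probe and lower by 0.31 on the other. The fourth gene called lower was the ligand Bmp4, with 12.81, 11.63, 13.10 and 10.94, which lay beyond ELA and 2.16 below AZA. The receptor Bmpr1a was at 11.80 in ES and 11.99 with CHQ (Bmp4 and Bmpr1a were picked after their values were seen).

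The LIF and Stat3 list had 2 members called higher and 4 lower of 13, against 12.7% and 10.3% of all genes, with a median of -0.09. Bcl3, a Stat3-induced nuclear regulator of the NF-kappaB family, had 13.74 (ES), 10.03 (ELA), 11.29 (AZA) and 10.65 (CHQ), and stayed near the level of untreated ELA. The kinase gene Pim1 had 9.93, 8.86, 9.62 and 7.90, and its relative Pim3 had 13.06, 11.59, 11.99 and 11.36. Both lay below untreated ELA with CHQ. Gadd45g, a growth arrest gene, and Jak1, the kinase of the LIF receptor, were higher than in ES by 2.00 and 1.77. The fourth gene called lower was Myc, by 1.26. Socs3, the direct feedback target of Stat3, matched ES with 13.43 (ES), 10.43 (ELA), 12.55 (AZA) and 13.12 (CHQ), so the targets of this pathway did not share 1 place relative to ES (Myc and Socs3 were picked after their values were seen).

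The Nodal, FGF and EGF lists are set beside 12.7% of all genes called higher and 10.3% called lower, a share that the Nodal list was near on the high side. Of 15 Nodal pathway genes, 7 that differed between ELA and ES matched ES with CHQ, 2 were called higher and 0 lower (median 0.53, and -0.56 under the spike-in scaling). The ligand gene Nodal had 13.04, 9.32, 14.17 and 13.90, and the inhibitor genes Lefty1 and Lefty2, which Nodal signals induce, were 0.08 and 0.57 from ES with CHQ and 2.56 and 3.46 from it with AZA (these 3 were picked after their values were seen). Smad3, a transducer, was called higher by 2.00, with a second probe at 0.32. Of 18 FGF and ERK genes, 5 were higher and 2 lower (median 0.25, and -0.03 and -0.82 under the 75th percentile and spike-in scalings and -0.08 with probes averaged). The first of the list was Fos, an immediate early gene and subunit of AP-1, with 8.35 (ES), 10.42 (ELA), 11.18 (AZA) and 12.84 (CHQ), and the immediate early gene Egr1, a zinc finger factor, had 11.86, 13.36, 13.96 and 14.48. Both rank ES lowest and CHQ highest. The receptor gene Fgfr4 was higher by 2.66. Spry4, a feedback inhibitor of the cascade, was lower by 1.65 and Fgf15 by 1.31. In the list of EGF receptors and ligands, 3 of 7 were higher and 1 lower (median 0.56, and -0.45 with the spike-in probes). Egfr stood at 10.33 (ES), 8.51 (ELA), 8.91 (AZA) and 12.93 (CHQ), which is 4.01 above AZA on the same slide, and its 2 other probes gave 1.04 and 1.10. Erbb3 and the ligand gene Nrg1 were higher by 1.72 and 1.12, and the ligand gene Hbegf was lower by 1.89.

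Apart from the lists, the genes that stayed on the ELA side were ranked by size within each direction. Among 99 eligible genes that stayed low, the first 4 were Bcl3, Folr1, Emp1 and Id2. Folr1, the folate receptor alpha (chromosome 7, 109006846 to 109006905), had 13.84 (ES), 10.32 (ELA), 13.07 (AZA) and 10.79 (CHQ), and Emp1, an epithelial membrane protein, had 10.86, 7.17, 10.54 and 7.97. In both the AZA array was within 1 log2 of ES and the CHQ array within 1 log2 of ELA. Among 64 eligible genes that stayed high, Ebf3, a transcription factor of neural and mesodermal lineages, had 6.89, 10.30, 8.12 and 9.43. Irs4, an insulin receptor substrate, had 7.17, 9.90, 7.19 and 9.66, but its other probe differed by 0.04. Fbp1, an enzyme of gluconeogenesis, and Peli2, an E3 ubiquitin ligase, were higher than in ES by 2.14 and 2.04.

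The gene farthest below ES among those that lay as far from it as ELA or farther was Plac8, a small cysteine-rich protein (chromosome 5, 100982797 to 100982856), with 13.17 (ES), 11.98 (ELA), 8.48 (AZA) and 7.65 (CHQ), and its other probe was lower by 3.28. On the high side, Syt10, a synaptotagmin of regulated secretion, had 9.69, 11.73, 15.09 and 14.48, and Kcp, a secreted modulator of BMP signals, had 9.63, 10.64, 12.78 and 13.73. Vldlr, a lipoprotein receptor, had 7.85 (ES), 10.49 (ELA) and 11.87 (CHQ) on its brighter probe, 1.17 above AZA, and a difference from ES of 0.84 on the other. In these genes both inhibitor arrays lay on the far side of untreated ELA.

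Some genes of the 2-cell stage overshot and others departed. Zscan4 genes, which mark the transient 2-cell-like state of ES cultures, share long stretches of sequence, so that single family members cannot be read apart. Zscan4f (chromosome 7, 11987608 to 11987667) had 10.30 (ES), 6.17 (ELA), 14.34 (AZA) and 14.20 (CHQ). Zscan4e had 9.93, 6.23, 14.20 and 13.96. Both overshot. Of 7 tested genes of the 2-cell list, 6 were called higher and 1 lower, against 12.7% and 10.3% of all genes. The list median was 3.88 (AZA minus ES 2.83, CHQ minus AZA 0.58). By class 1 of the 7, Zscan4f, was an overshoot, 5 were departures, Usp17la and Tcstv3 among them, and 1 lay short of ELA. Usp17la, a deubiquitinase gene of a multicopy family, had 7.25 in ES and 11.71 with CHQ on one probe and a difference of -1.0 on another. Tcstv3 was not well above background in ES (6.61) and passed the filter only through the CHQ array, where it read 10.71, at least 17.2-fold higher. For such genes ES gives only a bound, and the fold was taken against the higher of the gene's own ES signal and the dimmest signal that counted as well above background on the ES array. Zfp352, another 2-cell gene, went the other way, with 13.66 in ES and 12.63 with CHQ.

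The other named overshoots on the high side were Ttll6, Mlana and Nkx2-9. Ttll6, a tubulin polyglutamylase, had 8.68 (ES), 7.46 (ELA), 11.65 (AZA) and 12.99 (CHQ). Mlana, a melanosome protein, had 9.12, 7.11, 13.86 and 13.16. Nkx2-9, a homeobox gene of the ventral neural tube (chromosome 12, 57712410 to 57712469), had 9.36, 6.90, 12.37 and 13.32. All 3 were above ES on both inhibitor arrays and below ES in untreated ELA. Among drug transporters of the ABC family, 4 of 11 were higher and 1 lower, beside 12.7% and 10.3% of all genes (median 0.34, and -0.36 with the spike-in probes). Abcb4, the phospholipid transporter next to Abcb1b, had 12.29, 9.42, 13.80 and 14.70, an overshoot, and Abcc3, an organic anion exporter, was higher by 2.03. Abcg2, the exporter that marks stem cells, was lower by 1.15, and Abcb1a, the other P-glycoprotein gene, matched ES at 10.86 and 11.17 (picked after its values were seen). Of 9 annexins, 2 were higher and 2 lower, beside the same shares, with a median of 0.04 (-0.33 and -1.02 under the 75th percentile and spike-in scalings, -0.05 with probes averaged). Besides Anxa8, Anxa4 was higher by 1.29, while Anxa3 and Anxa6 were lower by 2.01 and 1.52.

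The first 3 overshoots on the low side were genes of neuronal microtubules. Stmn4, a stathmin that destabilizes microtubules, had 11.47 (ES), 13.31 (ELA), 7.12 (AZA) and 8.32 (CHQ). Stmn3, a relative, had 10.73, 12.34, 9.02 and 7.74, and Dpysl2, a tubulin-binding protein of growth cones, had 11.66, 13.11, 9.33 and 9.01. ELA was the highest array for each of them and ES lay between ELA and the inhibitor arrays. Slc39a8, a zinc and manganese importer, had 10.36, 11.54, 7.23 and 7.75. In the list of metal handling genes for zinc and copper, 2 of 14 were higher and 1 lower, near the 12.7% and 10.3% of all genes (median 0.26, and -0.53 with the spike-in probes). The 2 were the metallothioneins, which buffer zinc, Mt1 with 15.75 (ES), 17.65 (ELA), 18.04 (AZA) and 17.37 (CHQ), and Mt2 with 15.51, 17.78, 18.16 and 17.37.

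Genes of the actin cytoskeleton, many of them targets of serum response factor (SRF), had the most calls on the low side of the 38 gene lists read. SRF drives such genes from CArG boxes when actin is polymerized and is itself responsive to serum. Of 15 tested members, 9 were called lower and 1 higher, against 10.3% and 12.7% of all genes, and the median was -1.74 (AZA minus ES -1.70, CHQ minus AZA -0.05). Acta2, the smooth muscle actin (chromosome 19, 34316060 to 34316119), had 12.37 (ES), 10.83 (ELA), 6.97 (AZA) and 6.88 (CHQ). Tagln, the actin-binding transgelin (chromosome 9, 45738097 to 45738156), had 15.47, 13.69, 11.12 and 10.40. For both genes ES was the highest array, ELA the next, and the inhibitor arrays the lowest. Cnn2, a calponin, had 13.33, 12.87, 11.19 and 8.81, with a second probe at -3.25. Cnn2 and Myl9 were lower with CHQ than with AZA on the same slide, by 2.39 and 2.82, and Acta2 was not, at -0.09. Vim, the intermediate filament vimentin, was the member called higher, with 13.13, 13.24, 14.11 and 15.25.

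The 250 bases before the gene starts of Myl9 and Cnn2 are shown because they are the 2 genes of this group called lower whose window holds a CArG box, here in capitals. They were read from RefSeq on build GRCm38.p6, for Myl9 at chr2:156775214-156775463 and for Cnn2 at chr10:79988350-79988599, both on the plus strand and 5′ to 3′. The box begins 161 bases before the start in Myl9 and 56 bases before it in Cnn2.
Myl9: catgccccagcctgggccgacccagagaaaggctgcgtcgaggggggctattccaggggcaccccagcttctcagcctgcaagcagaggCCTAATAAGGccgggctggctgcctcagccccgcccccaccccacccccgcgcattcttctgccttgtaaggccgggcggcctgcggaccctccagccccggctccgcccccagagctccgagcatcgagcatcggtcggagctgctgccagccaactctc
Cnn2: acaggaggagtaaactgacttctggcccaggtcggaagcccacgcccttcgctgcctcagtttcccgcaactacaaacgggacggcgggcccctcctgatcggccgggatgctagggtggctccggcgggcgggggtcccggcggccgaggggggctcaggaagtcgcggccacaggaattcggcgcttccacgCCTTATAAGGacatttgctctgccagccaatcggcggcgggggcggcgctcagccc
A CArG box on either strand was found in this window in 3 of 11 tested members that have a promoter in the table (27.3%). It was in 2 of 7 called lower, 0 of 1 called higher and 1 of 3 not called. Over all genes it was in 439 of 27025 (1.62%). The list was chosen to hold many SRF targets, so a share above that of all genes is built in and is no result about CHQ. The members with a match were Myl9 and Cnn2, called lower, and Vcl, which was not called at -0.23. No promoter of Tagln was in the table.

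HIF targets had the most calls on the high side of the same lists. Of 27 tested members, 18 were called higher and 0 lower, against 12.7% and 10.3% of all genes. The median was 1.45 (0.45 with the spike-in probes), the AZA minus ES median was 1.44 and the CHQ minus AZA median 0.16. Adm, the vasodilator adrenomedullin (chromosome 7, 117773088 to 117773147), had 7.89 (ES), 8.08 (ELA), 10.81 (AZA) and 12.09 (CHQ). Ndrg1, a stress-responsive gene, had 11.13, 10.93, 13.90 and 14.95, and Ddit4, an inhibitor of mTORC1 signaling, had 14.69, 15.19, 17.39 and 18.22. In all 3 the ES and ELA arrays were within 1 log2 of each other, AZA was higher and CHQ was the highest. Car9, a carbonic anhydrase of the list, was high with AZA but not with CHQ, at 7.16 (ES), 6.96 (ELA), 10.80 (AZA) and 7.15 (CHQ) (picked after its values were seen).

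The upstream windows of Ddit4 and Egln3 are shown as examples of called members that hold the letters ACGTG, the core of a hypoxia response element, here in capitals on either strand. Both genes lie on the minus strand, Ddit4 with its window at chr10:59951771-59952020 and Egln3 at chr12:54203875-54204124 (RefSeq, GRCm38.p6). Each is printed 5′ to 3′ along the gene, and the match begins 187 bases before the start of Ddit4 and 229 before that of Egln3.
Ddit4: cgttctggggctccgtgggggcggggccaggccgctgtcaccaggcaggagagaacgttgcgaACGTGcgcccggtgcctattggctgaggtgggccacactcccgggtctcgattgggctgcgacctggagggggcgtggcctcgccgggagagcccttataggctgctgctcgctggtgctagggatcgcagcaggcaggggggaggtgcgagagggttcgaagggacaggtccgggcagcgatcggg
Egln3: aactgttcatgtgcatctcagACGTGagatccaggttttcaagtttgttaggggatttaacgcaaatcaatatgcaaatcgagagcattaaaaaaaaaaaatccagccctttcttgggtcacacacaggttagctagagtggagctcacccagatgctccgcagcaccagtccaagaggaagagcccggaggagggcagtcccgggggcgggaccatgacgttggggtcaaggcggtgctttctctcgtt
The letters were in the window of 14 of 23 tested members with a promoter in the table (60.9%), 10 of 15 called higher and 4 of 8 not called. Over all genes they were in 4998 of 27025 (18.5%). The list was chosen to hold HIF targets, so a share above that of all genes is built in and is no result about CHQ. Adm and Stc2, called higher, had no match in this window.

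The genes of the enzyme families that CHQ-type compounds can occupy were read next. Of 20 tested histone demethylase genes, 4 were called higher and 0 lower, against 12.7% and 10.3% of all genes, with a median of 0.64 that became -0.42 with the spike-in probes. Kdm6b, a demethylase of H3K27, had 10.22 (ES), 11.09 (ELA), 11.65 (AZA) and 12.16 (CHQ), and Kdm4b, a demethylase of H3K9, had 11.66, 12.40, 13.62 and 13.57. Kdm2b, a component of a variant Polycomb complex, was higher by 1.27 in the main values, 0.71 under the 75th percentile scaling, 0.76 as the mean over probes and -0.00666 with the spike-in probes, and its other probe gave 0.24. Of 13 other 2-oxoglutarate oxygenase genes, 4 were higher and 1 lower (median 0.31, -0.80 with the spike-in probes and -0.14 with probes averaged). The collagen hydroxylase Plod2 had 10.21, 9.93, 12.23 and 13.08, the HIF prolyl hydroxylase Egln3 had 9.91, 11.10, 11.92 and 12.42, and the prolyl hydroxylase subunit P4ha2 was higher by 1.91. Those 3 also belong to the HIF list. Plod1, a relative of Plod2, was lower by 1.56. Genes of DNA methylation had 1 of 11 called, the methyl-binding protein gene Mbd2, higher by 1.33 (median 0.08, -0.05 and -0.79 under the 75th percentile and spike-in scalings, -0.03 with probes averaged). Iron uptake and storage genes had 0 of 11 called in either direction, with differences from -0.50 to 0.50 on the brightest probes. The median was -0.01 (-0.26 and -0.99 under the 75th percentile and spike-in scalings, -0.20 with probes averaged). A further probe of the member Steap3 stood at -1.08, past the threshold.

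**Figure D5:**
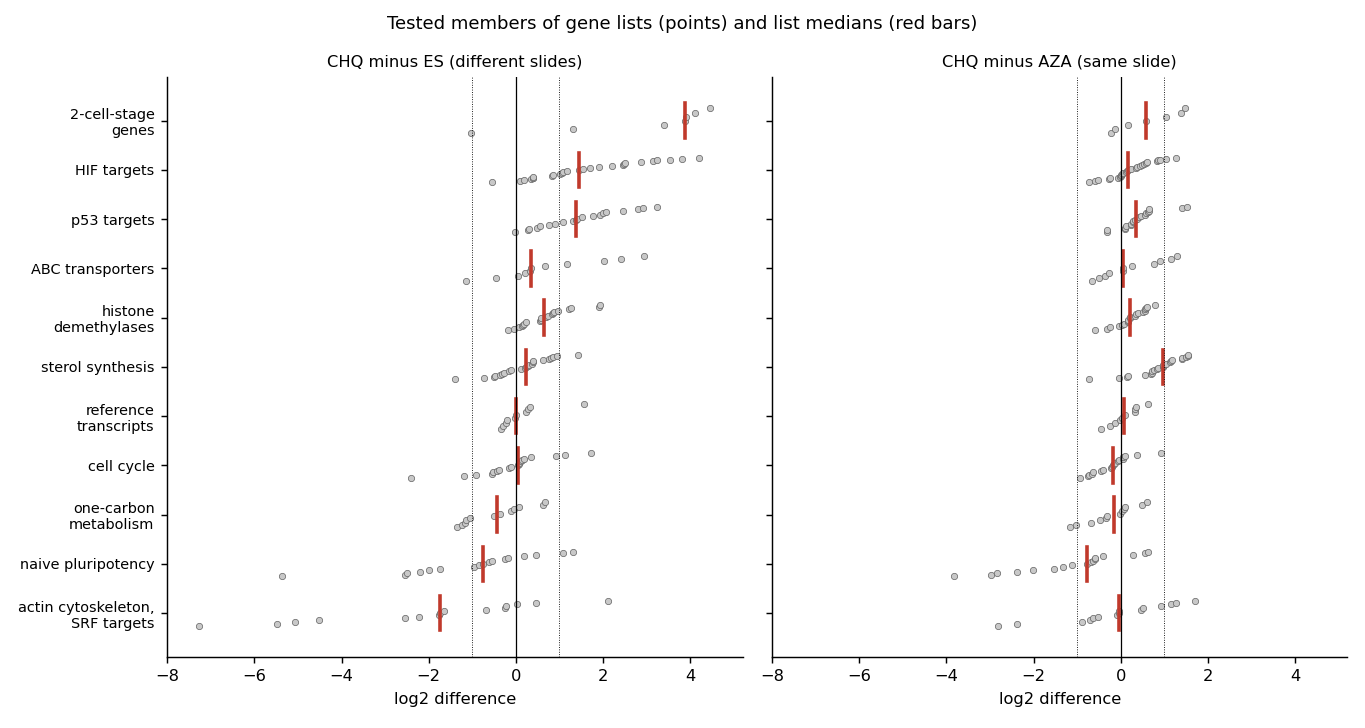
Log2 differences (horizontal axis) of the tested members (points) of 11 gene lists (vertical axis), with red bars at the list medians, for CHQ minus ES on different slides (left) and CHQ minus AZA on the same slide (right). HIF targets sit at a median of 1.45 on the left and 0.16 on the right, and actin genes at -1.74 and -0.05; on the left, the medians of the ABC, demethylase, sterol and cell cycle lists change sign under the spike-in scaling.

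Of 20 tested targets of p53, 13 were called higher and 0 lower, against 12.7% and 10.3% of all genes, with a median of 1.39 that was 0.82 under the 75th percentile scaling and 0.11 with the spike-in probes. Fas, a death receptor, had 7.87 (ES), 6.42 (ELA), 9.71 (AZA) and 11.11 (CHQ). Btg2, an antiproliferative gene, had 10.80, 11.27, 13.07 and 13.71, and Gdf15, a stress cytokine, had 9.08, 8.49, 11.75 and 11.88. The AZA minus ES median was 1.09 and the CHQ minus AZA median 0.35, so most of the difference from ES was also present on the AZA array of the same slide. Of 17 genes of the ATF4 and unfolded protein responses, 5 were higher and 2 lower, beside the same shares (median 0.43, and -0.50 with the spike-in probes). Atf3, a stress-induced factor, had 8.62, 9.37, 8.47 and 11.57 and so differed from AZA by 3.1. Ddit3, the factor CHOP, had 8.28, 9.86, 10.39 and 10.57. Phgdh, the first enzyme of serine synthesis, whose probe shares 30 bases or more with 1 other probe, was lower by 2.11, and Mthfd2, a mitochondrial folate enzyme, by 1.14.

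Metabolic and xenobiotic lists are read against the 12.7% of all genes called higher and the 10.3% called lower. Of 12 one-carbon genes, 5 were lower and 0 higher, with a median of -0.43. That median was -0.71 and -1.40 under the 75th percentile and spike-in scalings, and -0.64 with probes averaged. Shmt1, the cytosolic serine hydroxymethyltransferase, had 12.97 (ES), 12.05 (ELA), 11.97 (AZA) and 11.62 (CHQ). Tdh, the threonine dehydrogenase on which mouse ES cells rely, had 17.30, 15.52, 17.23 and 16.05, and its partner enzyme Gcat had 14.74, 15.20, 14.59 and 13.56. Tdh and Gcat were lower than with AZA, by 1.17 and 1.02. Of 23 sterol synthesis genes 1 was higher and 1 lower, Msmo1 by 1.43 and Ebp by 1.40, and the median was 0.23 (-0.13 and -0.84 under the 75th percentile and spike-in scalings). Against AZA the sterol median was 0.96. Of 17 Nrf2 targets 4 were higher and 2 lower (median 0.40, and -0.25 and -1.02 under these scalings). Ephx1, an epoxide hydrolase, overshot with 11.67 (ES), 8.87 (ELA), 15.09 (AZA) and 15.08 (CHQ), although its second probe gave 0.79. Osgin1 and Nqo1 were higher by 1.59 and 1.23, and Gsta4 and Gclm lower by 1.36 and 1.13. Of 7 targets of the aryl hydrocarbon receptor, 2 were higher, Tiparp by 1.07 and Cyp1a1 by 1.01 (median 0.48, and -0.55 with the spike-in probes).

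Markers of other cell types were read for each lineage the cultures could hold. Of 22 primitive endoderm genes on the array, 13 were well above background in ES and 18 with CHQ, beside 11 in ELA and 19 with AZA, while over all gene spots the share was 60.6% in ES and 69.2% with CHQ. Of 12 tested, 5 were called higher and 1 lower, against 12.7% and 10.3% of all genes (median 0.67, and -0.05 with the spike-in probes). Gata6, Sox17 and Hnf4a, 3 of the 5, passed the filter only through the CHQ array, where they are high. Gata6, a defining factor of this lineage, was not well above background in ES (6.41) or ELA (6.69) and read 8.06 with AZA and 9.89 with CHQ, at least 10.4-fold above ES. Sox17, another, went from 6.37 in ES to 9.51 with CHQ, at least 7.96-fold. A further Sox17 probe, well above background on both arrays, had 6.84 in ES and 8.37 with CHQ, a difference of 1.53. Hnf4a, a factor of visceral endoderm, went from 6.47 in ES to 10.82 with AZA and 9.11 with CHQ. The secreted products Ttr and Apoa1 were not well above background on any array, and Amn, a receptor subunit of visceral endoderm, was lower by 1.45. The summed linear intensity of the tested members was 1.45e+05 (ES), 9.45e+04 (ELA), 1.18e+05 (AZA) and 1.19e+05 (CHQ), and their part in other differences was not tested.

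The remaining lineages gave mixed values, to be read beside 12.7% of all genes called higher and 10.3% called lower. Of 11 trophoblast genes, 1 was higher and 3 lower (median 0.24, and -0.57 with the spike-in probes), and the defining factor Cdx2 was not well above background with CHQ. Krt18, a simple epithelial keratin, had 16.29 (ES), 16.01 (ELA), 14.52 (AZA) and 13.78 (CHQ), and its partner Krt8 had 15.17, 14.37, 12.57 and 13.17. Ascl2, a placental factor, was higher by 1.46. The summed intensity of this list was 1.44e+05 in ES and 5.91e+04 with CHQ. Such sums are linear and weigh the brightest members most, here Krt18 and Krt8 in ES. The fall of the sum is thus no fall of the list, whose median was above 0. Of 4 tested mesendoderm genes, Wnt3, a ligand, was higher by 2.31 and Sp5, a Wnt target, lower by 1.74 (list median -0.21, sums 2.63e+03 and 2.35e+03). Of 11 neural genes, 3 were higher and 5 lower with a median of -0.40, and the sum was 3.78e+04 (ES), 5.27e+04 (ELA), 1.40e+04 (AZA) and 1.34e+04 (CHQ). The lowest were Stmn4, Stmn3 and Stmn2, the last with 14.14, 13.35, 12.45 and 11.28. Ncam1, Lhx2 and Map2 were higher by 1.53, 1.5 and 1.25, but other probes of Ncam1 ranged from -0.07 to 0.20 and one of Map2 gave 0.23. Of 5 fibroblast genes, Col1a2 was lower by 1.16 and none higher (median -0.10), and Lum, Postn and Fap were not well above background on any array. Of 12 epithelial adhesion genes, Cldn7, a claudin, was lower by 1.48 and none higher (median -0.16). Of 10 developmental homeobox genes, 4 were higher and 0 lower (median 0.47, and -0.30 with the spike-in probes). Hoxc6 and Lhx5, 2 of the 4, passed the filter only through the CHQ array and were at least 4.47-fold and 4.41-fold higher with CHQ.

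Of 20 tested germline genes, 6 were higher and 0 lower, against 12.7% and 10.3% of all genes, with a median of 0.60 (-0.31 with the spike-in probes), and AZA gave 0.66. Rpl10l, a ribosomal protein gene of spermatogenesis, had 12.77 (ES), 11.06 (ELA), 15.77 (AZA) and 15.29 (CHQ). Slc25a31, a sperm ADP/ATP carrier, had 7.40, 6.90, 8.70 and 9.60, and Hormad1, a meiotic chromosome protein, had 8.47, 7.04, 11.46 and 10.54. The other Hormad1 probe gave 0.53, and the mean over its probes was 1.30. Maternal effect genes had 1 higher and 2 lower of 6 tested (median -0.46). Dppa3 was the lowest, Khdc3, a member of the subcortical maternal complex, had 11.94, 7.80, 12.79 and 10.49, and Nlrp5, of the same complex, overshot with 8.55, 7.53, 9.69 and 10.33. The complex thus held members on both sides of ES.

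Of 16 imprinted genes, 4 were higher and 4 lower, beside 12.7% and 10.3% of all genes (median 0.16, and -0.68 with the spike-in probes). Plagl1, a growth-restraining zinc finger factor, had 7.53 (ES), 6.73 (ELA), 9.42 (AZA) and 10.78 (CHQ), although its other probes ranged from -0.28 to 3.38. H19, a noncoding RNA, and Igf2r, the receptor that clears Igf2, were higher by 1.67 and 1.36, with H19's other probes from -0.12 to 0.99. Phlda2, a restraint on placental growth, had 11.71, 9.33, 10.53 and 8.87, and Peg10 and Dlk1 were lower by 2.76 and 1.73. Of 10 interferon genes, 1 was higher and 2 lower, beside the same shares (median -0.43). Rsad2, the antiviral viperin, was not well above background in ES (6.64) and read 8.16 in ELA, 7.89 with AZA and 10.27 with CHQ, at least 12.4-fold above ES, while the sensors Ddx58 and Oasl2 were lower by 2.09 and 1.23.

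Cell cycle genes had 2 higher and 2 lower of 19, near the 12.7% and 10.3% of all genes, with a median of 0.05 (-0.63 and -1.37 under the 75th percentile and spike-in scalings). Ccne1, the G1 cyclin E1, had 16.31 (ES), 15.62 (ELA), 14.66 (AZA) and 13.91 (CHQ), with a second probe at -3.47, and Ccnd1 was lower by 1.18. The inhibitors Cdkn2b and Cdkn2a were higher by 1.73 and 1.12, each with a second probe of the same sign. The replicative helicase genes Mcm2 to Mcm7 lay between -0.12 and 0.20 (picked after their values were seen). Of 10 reference transcripts, 1 was called higher and 0 lower, and the median was -0.01 (-0.42 and -1.15 under these scalings).

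Among the largest departures besides Ndufa4l2 and Myl9, some were shared with AZA. Mst1, a hepatocyte growth factor-like ligand, had 7.54 (ES), 6.77 (ELA), 12.64 (AZA) and 12.95 (CHQ), and Cpz, a carboxypeptidase that binds Wnt, had 8.43, 8.39, 12 and 13.81. Rbmy, a multicopy RNA-binding gene of the Y chromosome whose copies cannot be read apart, had 7.31, 6.72, 7.74 and 11.83, and so stood 4.09 above AZA on the same slide. On the low side, Gap43, a growth cone protein, had 12.81, 12.34, 8.39 and 9.66, and ND6, a mitochondrially encoded subunit of complex I, had 11.61, 11.03, 9.47 and 8.30.

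With the AZA array within 1 log2 of ES and CHQ at least 1 log2 from both in the same direction, 297 genes were higher and 192 lower among genes with an ordinary symbol that met the naming conditions. This set and its examples were chosen after the values were seen, and being apart from both was the condition, so the sizes are a description. The highest after Rbmy was Ltf, the iron-binding lactoferrin, with 6.82 (ES), 6.47 (ELA), 7.36 (AZA) and 11.25 (CHQ). Pla2g4a, the phospholipase that releases arachidonic acid, had 9.78, 9.07, 9.07 and 12.68, and Aldh1a1, a retinaldehyde dehydrogenase, had 7.03, 6.70, 7.21 and 10.05. In these the other 3 arrays lay within 1 log2 of each other. On the low side were Tdrd12, a piRNA factor of the germline, with 12.10, 11.27, 12.35 and 9.50, and Pttg1, the mitotic securin, with 15.50, 15.70, 15.82 and 13.03. Zp3, a zona pellucida protein, had 11.12, 8.70, 10.46 and 7.96, and Spic, an Ets factor of ES cells, had 10.32, 7.48, 10.72 and 8.05, and the set on the low side also held Nanog, Prdm14, Folr1 and Emp1.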

How the data were processed

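RNA was measured on 1-color 60-mer mouse arrays, 1 array per group, each with pooled RNA of 3 experiments. The authors deposited scanner files with spot mean and local background intensities, read with Agilent Feature Extraction (10.7.3.1 per the file headers, 9.1 in the submitters' processing notes), and a table of log2 values that they had normalized with limma, whose version is not given in the sources used here. The deposited flags of 0 or 1 mark spots well above background, and the deposited processed signal is an intensity corrected within its array only.

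Here the intensities were background-corrected (normexp, offset 50) and quantile normalized over the 4 arrays in limma 3.58.1 (R 4.3.3), which makes the distribution of levels alike on all arrays. Control spots and outlier spots were left out (559 of 55681 probes were left out) and repeated spots were averaged. Each of the 36039 genes was read from whichever of its probes was brightest on average across the arrays, 10180 of them having more than 1. Of the probes, 47.7% were renamed through their RefSeq accession with a gene table of GRCm38.p6, used for names only. Positions given for probes are those of the files, on build mm9, and no annotation of that build was used. Further tables were made with Python 3.11.15, pandas 2.3.3 and numpy 2.4.6.

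A gene was called where CHQ and ES differed by at least 1 on the log2 scale, their mean level reached 7.5 and 1 or both of them read well above background. With 1 array per group no test was run and no replicate check exists, so that precision is limited by their number. The script that sorts genes into classes was tested on simulated data. Genes were named as the 4 largest in each class and direction with an ordinary symbol and a probe well above background on both arrays, provided that every other probe of the gene that was well above background on 1 of the 2 arrays had the same sign, and as the 3 largest called in each direction of the 38 lists, with all naive, general and Id genes added. Of 573 list symbols, 571 were on the array. The comparison, the lists and the rules were chosen with earlier results of these data known. Alternatives were the 75th percentile and spike-in scalings, normalization of the 2 arrays alone, no background correction, the deposited log2 table, the mean over probes, other filters on dim probes and a threshold of 2. A knockdown array of the series was not analysed here, and a few named members of the lists are not reported here.

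Promoter windows were the 250 bases before each gene start in RefSeq (GRCm38.p6), searched on both strands for the CArG box, taken by its consensus, and for ACGTG, the core of the hypoxia response element.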

Additional observations from a re-analysis of the deposited data

How the results depend on the processing

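No paired analysis was possible because each group has 1 array, and for the same reason no replicate could be left out. Spike-in scaling gave 10863 called genes, 944 higher and 9919 lower, and 1911 genes matched ES, 754 lay short of ELA, 1841 beyond it and 7993 departed. The 75th percentile scaling gave 3296 lower genes. A threshold of 2 left 1000 called genes, 767 higher and 233 lower, with 264 matched, 30 short of ELA, 29 beyond it, 21 overshoots and 920 departures. Without the filter on dim probes all 36039 genes were compared, 5127 (14.2%) were called and 1625 matched ES. Genes called neither between ES and ELA nor between CHQ and ES numbered 13763 in the main values. They were 6838 under spike-in scaling and 29287 without the filter on dim probes. The other counts of called genes and of classes run under these settings stayed within 1.5 times the main ones. Counts shared with AZA and counts within lists were not rerun. The deposited log2 table gave 4304 called genes, 2222 higher and 2082 lower, and no background correction gave 4420. Of the called genes named here, Fgf4 (-0.31), Kdm2b (-0.00666) and Pou3f1 (-0.15) changed sign, all under the spike-in scaling. Several genes named with positive differences below the threshold, such as Klf4, Klf5, Nodal, Lefty1, Lefty2, Dnmt3a, Bmpr1a and Abcb1a, also lay below 0 under it. Of the 38 list medians, 23 changed sign under 1 or more settings, 21 of them under the spike-in scaling and 6 under the 75th percentile scaling. The naive, general, Id, LIF, maternal, mesendoderm, neural, fibroblast, actin, epithelial, interferon and one-carbon medians were below 0 under all settings, and the 2-cell, HIF and p53 medians above 0. Causes were not tested. Signals near background limit the folds, since 152 called genes were not well above background in ES and 7 were not with CHQ.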

Other observations

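Some gene families, picked by name after the values were seen and in part with members that the lists also hold, had members called mostly in 1 direction, to be read against the 12.7% of all genes called higher and the 10.3% called lower. Of 12 tested Pramel genes, a multicopy family of germline and early embryo genes, 8 were higher with CHQ than in ES and 1 lower, with a median of 2.30 (1.5 under the spike-in scaling). Pramel39 had 7.56 (ES), 6.23 (ELA), 11.14 (AZA) and 12.02 (CHQ), while Pramel14 had 8.43, 6.19, 11.24 and 7.36 in that order and so stood 3.87 below AZA. Near-identical copies of this family may share signal. Of 19 collagen genes, 9 were higher and 1 lower, with a median of 0.91 (0.06 under the spike-in scaling) and of 0.98 against AZA on the same slide. Col22a1, a collagen of tissue junctions, had 7.43 (ES), 7.88 (ELA), 8.25 (AZA) and 11.04 (CHQ), and Col5a3, a fibrillar collagen, had 8.49, 8.26, 9.50 and 10.43.

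On the low side, 6 of 22 tubulin genes were lower and 0 higher. Their median was -0.42 (-0.78 and -1.48 under the 75th percentile and spike-in scalings). Tubb3, the neuronal tubulin, had 12.62, 13.30, 10.66 and 10.02, and Tubb2a had 13.04, 12.49, 12.95 and 10.97, so that only the former was also low with AZA. Of 7 connexin genes 4 were lower (median -1.05, and -1.42 and -1.91 under these scalings). Among them was Gja1, the main gap junction protein of ES cells, at 11.80, 12.26, 10.44 and 10.42. Of 39 proteasome genes 6 were lower and 0 higher, near the 10.3% of all genes called lower. The proteasome median was -0.57 (-1.14 and -1.83 under these scalings). The lowest was Psmb8, a subunit of the immunoproteasome, at 10.62, 8.73, 8.94 and 8.38. Of 81 cytosolic ribosomal protein genes 1 was higher and 1 lower, with a median of -0.16 (-1.03 and -1.74 under these scalings).

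Aldehyde dehydrogenases were called higher in 6 and lower in 1 of 17 cases, with a median of 0.23 that was -0.79 under the spike-in scaling. Aldh1l1, which oxidizes formyl-tetrahydrofolate, had 10.72 (ES), 10.88 (ELA), 14.58 (AZA) and 15.20 (CHQ), and Aldh1b1, a mitochondrial member, had 9.70, 9.61, 9.19 and 7.61. Keratins outside the simple epithelial pair lay on both sides of ES. Krt5 had 7.19, 7.51, 9.24 and 11.47 on its brighter probe and a difference of 0.43 on the other, and Krt17 had 11.30, 8.31, 8.55 and 7.95.

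A set of 43 probes with 41 names on 14 chromosomes shared runs of at least 30 bases with each other. Their median log2 intensity was 16.05 (ES), 15.43 (ELA), 17.26 (AZA) and 17.67 (CHQ). The CHQ minus ES differences ranged from -0.29 to 2.58 with a median of 1.65, and 32 were 1 or more higher and 0 lower. Probes named Cplx2, Dcc, Gab3, Gcm1, Pigr, Rhox8, Sox5 and Vash1 belong to the set, so their brightness cannot be assigned to those genes. The other Rhox8 probe differed by -0.23. What repeated sequence the probes share was not determined. Another set of 42 such probes had a median difference of -0.19 and none past 1. Among all called genes, 6.55% were read from a probe that shared such a run with a probe of another name, against 7.57% of all tested genes.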
